A study of Mus musculus with 17 samples.

Results

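The genes described here are 36 genes of the choroid plexus epithelium, out of 55450 genes counted in mouse hippocampal RNA. They were taken by gene symbol from a list drawn up with the levels of these same libraries in view, so the members were chosen by values of the same contrasts (log2 CPM per library), and their levels and fold changes are given as a description. All 36 had an Ensembl identifier in the count lists, and 35 passed the filter on low counts that left 17615 genes for testing. The exception was Igf2.

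RNA was sequenced from 17 hippocampal samples of adult C57BL/6J mice, 1 library per sample. The epileptic groups were made by kainic acid, an excitant of glutamate receptors, placed in the right amygdala, a model of temporal lobe epilepsy, and controls had sham treatment. All 3 groups carried AAV9 vectors in the right ventral hippocampus and ate doxycycline, which switches on dCas9A, a nuclease-dead Cas9 joined to the activator VP64. The transactivator was driven by the Camk2a promoter, which is biased to excitatory neurons, so the vectors were not directed at choroid plexus. The control sgLacZ group had 5 libraries (replicates 13, 14, 15, 16 and 23) and a guide to a bacterial gene. The epileptic sgLacZ group had 6 (replicates 4 to 9) with the same guide, and the epileptic sgKcna1 group had 6 (replicates 1, 2, 3, 10, 11 and 12) with a guide to the promoter of Kcna1, a potassium channel gene. No control libraries with sgKcna1 were analysed here. The labels do not say whether each library is a separate animal, so P values measure the spread between these samples.

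The choroid plexus is a fringe of secretory epithelium that hangs into the ventricles of the brain, where it makes cerebrospinal fluid and forms the barrier between blood and that fluid. Its cells secrete carrier proteins and growth factors, move water and ions with dedicated channels and transporters, and keep the identity of dorsal midline epithelium through homeodomain factors such as Otx2. It is no part of the hippocampus proper but lies beside it, against the fimbria in the lateral ventricle.

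Library depth ranged from 11839240 reads in genes in epileptic sgKcna1 replicate 12 to 28311328 in epileptic sgLacZ replicate 4, and 3 reads correspond to 0.106 to 0.253 CPM, the reads of a gene scaled to a common library size. The share of unmapped reads ran from 11.0% in epileptic sgLacZ replicate 4 to 41.5% in epileptic sgKcna1 replicate 12. Kcna1, the targeted gene, had 13.9 to 132.5 CPM (median 19.1) in the libraries labelled epileptic sgKcna1, 16.9 to 56.7 (median 27.6) in those labelled epileptic sgLacZ and 25.5 to 44.0 (median 34.6) in controls, so its level did not separate the groups. Summed markers of hippocampal neurons, among them Camk2a, Prox1 and Wfs1, lay between 5606 and 7194 CPM in all 17 libraries. The sum does not show single genes. Of its 8 markers, Wfs1 and Spink8 differed between epileptic sgLacZ and control (edgeR, adjusted P under 0.05), 1 higher and 1 lower. Of all tested genes, 11.0% were called in either direction. Levels are given as CPM after TMM scaling of the library sizes.

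Transcripts of choroid plexus epithelium were present in every library, but their amount differed more within groups than between the group means. Ttr encodes transthyretin, the carrier of thyroid hormone in cerebrospinal fluid. It spanned 45.5-fold over the 17 libraries. In controls it had 12244 CPM in replicate 13, 1149 in replicate 14, 4545 in replicate 15, 2760 in replicate 16 and 6501 in replicate 23. In the epileptic sgLacZ group it ran from 4102 in replicate 4 to 11136 in replicate 8, with a median of 5148. In the epileptic sgKcna1 group it ran from 269 in replicate 2 to 7618 in replicate 10, with a median of 4078. The epileptic sgLacZ libraries all lay within the control range, whereas the epileptic sgKcna1 group held both the 2 lowest libraries of the study, replicates 2 and 1 (636 CPM), and libraries as high as most others. As a share of all reads in genes, Ttr made up 1.18% of control replicate 13 and 0.0267% of epileptic sgKcna1 replicate 2. In whole hippocampus, fewer epithelial cells and less RNA per cell cannot be told apart.

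**Figure D1:**
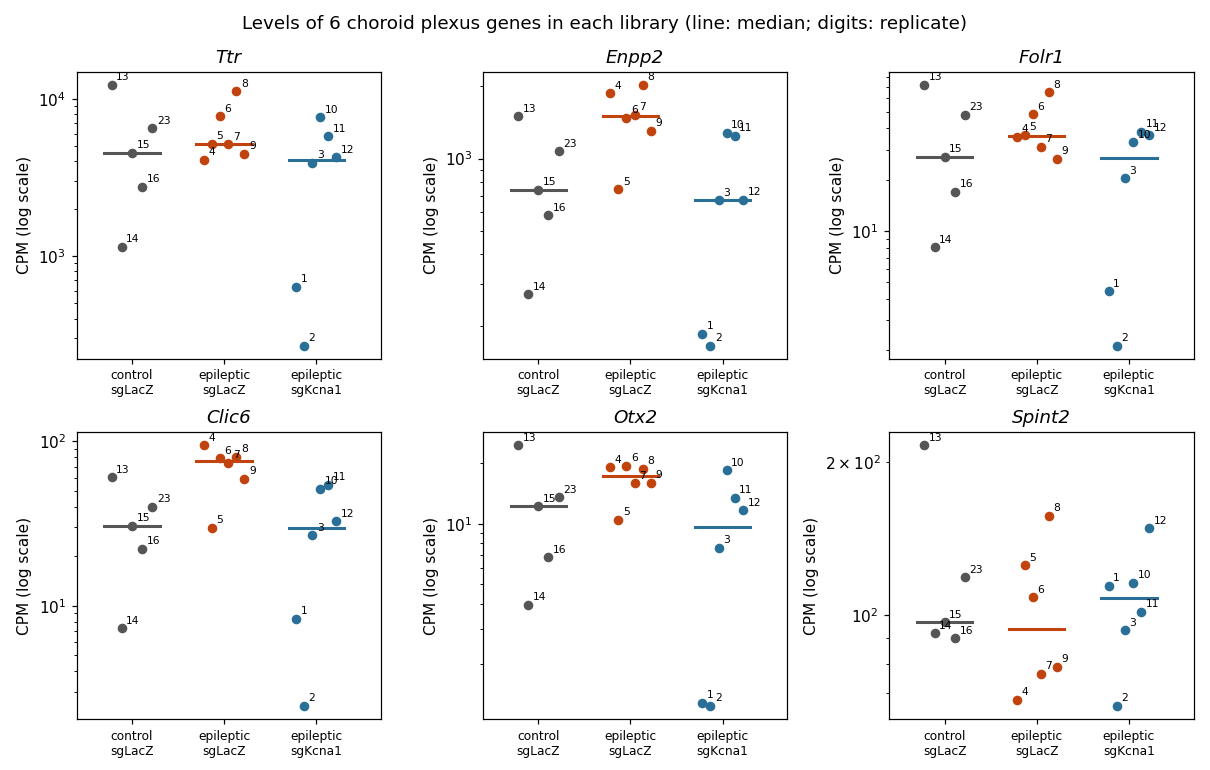
Each dot is the level of 1 gene in 1 library, in CPM on a log axis, by group, with the replicate number beside it and a line at the group median. For Ttr, Enpp2, Folr1, Clic6 and Otx2, epileptic sgKcna1 replicates 1 and 2 lie far below the other 4 libraries of their group and control replicate 14 is the lowest control, whereas Spint2 spans only 66.1 to 216 CPM.

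The same libraries were low or high for most of the genes. Epileptic sgKcna1 replicate 2 had the lowest level of 30 of the 35 tested genes, control replicate 14 of 3 and epileptic sgKcna1 replicate 1 of 2. The highest level lay in control replicate 13 for 15 genes, in epileptic sgLacZ replicate 4 for 10, in epileptic sgLacZ replicate 8 for 8 and in epileptic sgKcna1 replicate 12 for 2. The mean log2 CPM over the 35 genes was 4.24 ± 0.89 (SD, n = 5) in controls, 4.94 ± 0.37 (n = 6) in epileptic sgLacZ and 3.71 ± 1.28 (n = 6) in epileptic sgKcna1. Between single libraries it ran from 1.73 to 5.46. The SD of log2 CPM over the 17 libraries had a median of 1.10 over the 32 members with a mean of at least 5 CPM, against 0.27 over all 11686 genes at that level, and 26 of those 32 exceeded 0.69, the value below which 95% of the 11686 genes lay. Within groups, the pooled SD had a median of 1.00 over the same members and 0.25 over all genes. The spread was thus mainly between libraries of the same group.

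**Figure D2:**
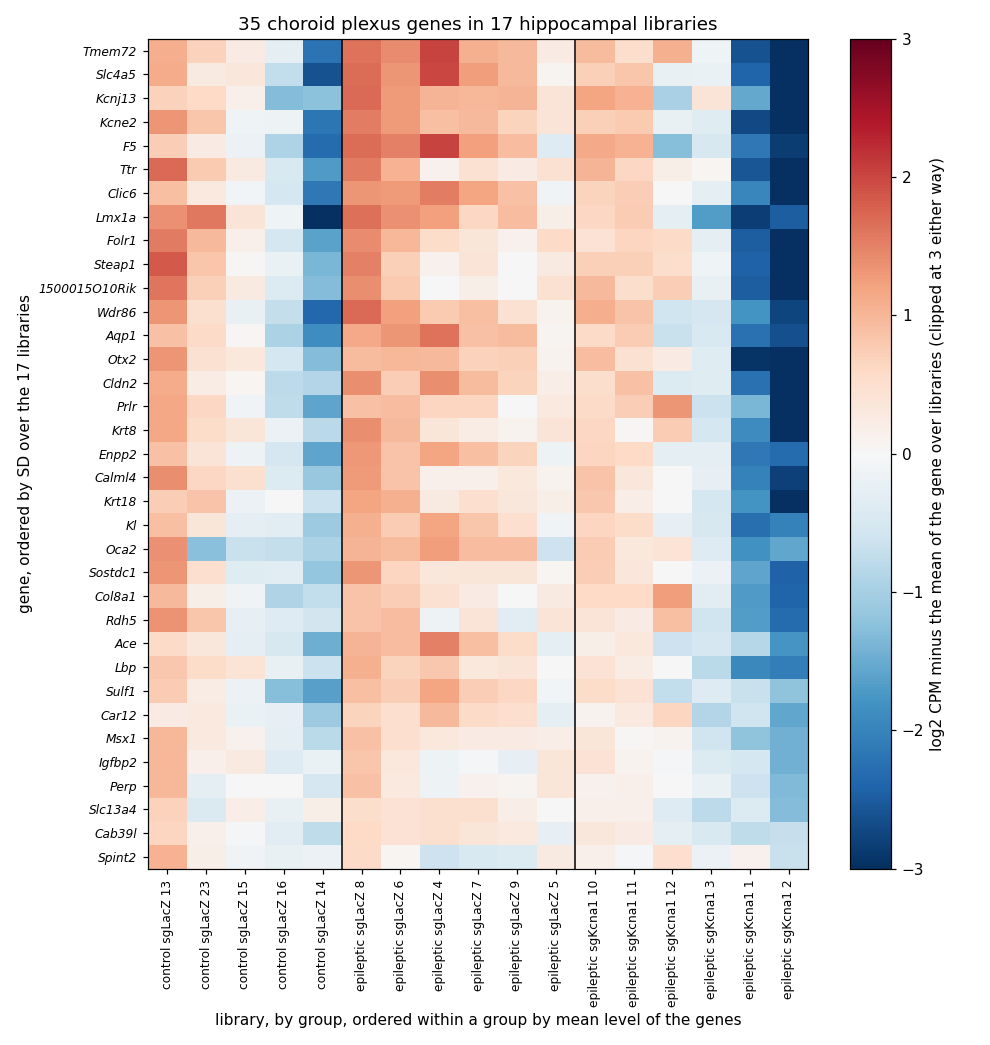
Log2 CPM of the 35 tested genes (rows, most variable on top) in the 17 libraries (columns), as the difference from the mean of each gene, red for higher and blue for lower, clipped at 3 in either direction. Columns are sorted within a group, and the blue columns are epileptic sgKcna1 replicates 2 and 1 and control replicate 14, with the contrast fading towards Spint2 and Cab39l at the bottom.

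Among the secreted products, Ttr was by far the most abundant also per length of transcript, with a control mean of 4463 CPM per kilobase of exon. Enpp2, which encodes autotaxin, the enzyme that makes lysophosphatidic acid, followed with 239.9 CPM per kilobase. In CPM it had 1498 in control replicate 13, 272 in replicate 14, 741 in replicate 15, 581 in replicate 16 and 1073 in replicate 23. It ran from 744 to 2028 (median 1499) in epileptic sgLacZ and from 165.8 to 1279 (median 671) in epileptic sgKcna1, where replicates 1 and 2 had the 2 lowest values of the study. 1500015O10Rik, named Ecrg4 in RefSeq and known for a secreted peptide of this epithelium, had 91.2 CPM per kilobase in controls. Its CPM there was 176.9, 23.7, 70.5, 43.8 and 96.2 in replicates 13, 14, 15, 16 and 23. The epileptic sgLacZ libraries had 57.5 to 152.7 (median 73.1), and the epileptic sgKcna1 libraries 6.23 to 114.6 (median 67.3). As for Ttr, control replicate 14 and epileptic sgKcna1 replicate 2 were the lowest of their groups and control replicate 13 was the highest of all.

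Sostdc1, a secreted inhibitor of BMP signalling, had 58.5, 10.4, 18.3, 18.7 and 33.2 CPM in the controls in the same order. In epileptic sgLacZ it ran from 24.3 to 58.2 (median 30.2) and in epileptic sgKcna1 from 4.37 to 39.2 (median 21.9). Igf2, a growth factor made by choroid plexus and meninges, was near the floor. It had 0 to 0.296 CPM in controls and 0 to 0.222 in epileptic sgKcna1, at most 7 reads in a library. In epileptic sgLacZ it ran from 0.0509 CPM, 1 read, to 5.40 CPM, 153 reads, the latter in replicate 4. Igf2 therefore did not pass the filter,. The other secreted products, Igfbp2, Lbp, F5, Col8a1 and Sulf1, had their lowest level between 1.31 CPM (F5) and 61.3 CPM (Igfbp2) and their highest between 27.8 CPM (Col8a1) and 333.6 CPM (Igfbp2).

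Of the 9 genes for transport, Folr1 encodes the folate receptor that carries folate across this epithelium. It had 72.0, 8.03, 27.3, 16.99 and 48.3 CPM in control replicates 13, 14, 15, 16 and 23. Epileptic sgLacZ libraries had 26.6 to 65.2 (median 36.2) and epileptic sgKcna1 libraries 2.13 to 38.3 (median 26.8). Aqp1, the water channel of the apical membrane, had 17.7, 2.62, 9.78, 5.00 and 14.3 CPM in the controls, 10.2 to 29.5 (median 19.9) in epileptic sgLacZ and 1.53 to 16.2 (median 6.53) in epileptic sgKcna1. Thus 4 of the 6 epileptic sgLacZ libraries had more Aqp1 than any control, whereas Folr1 was highest in a control.

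Slc4a5, a sodium bicarbonate cotransporter, had 17.3, 1.29, 10.1, 4.80 and 9.61 CPM in the controls, 8.35 to 31.8 (median 19.4) in epileptic sgLacZ and 0.373 to 14.2 (median 6.88) in epileptic sgKcna1. Clic6, a protein of the chloride channel family, had 60.2, 7.28, 30.6, 22.3 and 39.7 CPM in the controls, 29.8 to 94.4 (median 76.1) in epileptic sgLacZ and 2.46 to 54.1 (median 29.7) in epileptic sgKcna1. Both genes were lowest in epileptic sgKcna1 replicate 2 and highest in epileptic sgLacZ replicate 4. Kcne2, a potassium channel subunit, had 36.4, 3.25, 13.3, 13.1 and 26.0 CPM in the controls, 19.0 to 42.2 (median 27.7) in epileptic sgLacZ and 1.12 to 25.0 (median 11.9) in epileptic sgKcna1. Kcnj13, an inward rectifier potassium channel of the apical membrane, had 5.36, 1.42, 3.64, 1.33 and 4.95 CPM in the controls, 4.33 to 10.8 (median 6.72) in epileptic sgLacZ and 0.0747 to 7.51 (median 3.01) in epileptic sgKcna1. The lowest of these values rests on 2 reads. For Kcnj13 the counts of both strands added to 4.63 times the unstranded count. Most reads over it thus fell where it overlaps another gene and were left out. Which of the genes those reads came from cannot be told, so the level of Kcnj13 is uncertain. Slc13a4, a sulfate transporter, stood apart from the others of this role with only a 4.00-fold range on the log2 CPM scale with a prior count of 2.

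Of the receptors and enzymes, Kl encodes klotho, the co-receptor of FGF23 that is also shed into cerebrospinal fluid. It had 130.1, 32.5, 57.0, 56.0 and 88.6 CPM in control replicates 13, 14, 15, 16 and 23. Epileptic sgLacZ libraries had 64.0 to 156.8 (median 120.9) and epileptic sgKcna1 libraries 14.4 to 108.5 (median 54.2). Prlr, the prolactin receptor, had 61.4, 9.16, 25.5, 16.1 and 42.4 CPM in the controls, 27.6 to 51.7 (median 43.1) in epileptic sgLacZ and 2.73 to 69.2 (median 29.3) in epileptic sgKcna1. Its highest level was in epileptic sgKcna1 replicate 12. Ace, angiotensin-converting enzyme, had 43.0, 10.3, 23.3, 20.4 and 36.0 CPM in the controls, 23.3 to 82.4 (median 54.1) in epileptic sgLacZ and 8.47 to 35.7 (median 19.4) in epileptic sgKcna1. Ace is also made by endothelium, and the counts of both strands added to 1.11 times its unstranded count.

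Of the epithelial genes, Cldn2, the claudin of leaky, cation-selective tight junctions, had 21.1, 5.37, 10.2, 5.73 and 11.4 CPM in the controls, 11.3 to 25.9 (median 17.6) in epileptic sgLacZ and 0.896 to 18.2 (median 7.52) in epileptic sgKcna1. Krt18, a keratin of simple epithelia, had 10.9, 4.20, 5.77, 6.46 and 11.7 CPM in the controls, 7.36 to 14.8 (median 8.79) in epileptic sgLacZ and 0.784 to 11.5 (median 5.59) in epileptic sgKcna1. Its partner Krt8 ran from 0.411 to 12.7 CPM. Spint2, a protease inhibitor of many epithelia, had the lowest SD of log2 CPM of the 35 tested genes (0.44). It had 89.9 to 216 CPM in controls, 67.9 to 156.9 in epileptic sgLacZ and 66.1 to 148.2 in epileptic sgKcna1. Steap1, Oca2, Car12, Rdh5 and Perp, of the roles above, had their lowest level between 0.439 CPM (Oca2) and 11.6 CPM (Car12) and their highest between 4.00 CPM (Oca2) and 66.9 CPM (Car12). The members of no such role, Calml4, Tmem72, Wdr86 and Cab39l, ranged from 0.0747 CPM (2 reads of Tmem72 in epileptic sgKcna1 replicate 2) to 77.4 CPM (Cab39l in control replicate 13).

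Of the transcription factors, Otx2, the homeodomain factor needed for choroid plexus identity, had 24.7, 3.95, 12.3, 6.80 and 13.6 CPM in the controls, 10.5 to 19.5 (median 17.4) in epileptic sgLacZ and 1.23 to 18.5 (median 9.64) in epileptic sgKcna1. Lmx1a, a LIM homeodomain factor of the dorsal midline, had 3.25, 0.125, 1.63, 1.13 and 3.71 CPM in the controls, 1.41 to 3.91 (median 2.65) in epileptic sgLacZ and 0.176 to 2.12 (median 0.708) in epileptic sgKcna1. Its lowest value is 3 reads, at the floor. Msx1, a homeodomain factor of the same tissue, ran from 8.81 to 48.2 CPM. All 3 factors were lower in epileptic sgKcna1 replicates 1 and 2 than in any epileptic sgLacZ library.

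The letters upstream of the starts of the genes were searched on both strands for 2 homeodomain cores. These were TAATCC, the core bound by Otx2, and TAATTA, a core bound by LIM homeodomain factors and by Msx1. The 250 bases before the start were read from the RefSeq promoter table for GRCm38.p6, which held 40 windows for 28 of the genes. TAATCC was found in 2 of the 40 windows, or 5%, against 6.25% of all 32851 windows of this length, in Ace and in Otx2. TAATTA was found in 2 of the 40, or 5%, against 4.84% of all, both of them windows of Otx2. The matches are letters only, and their use was not measured. The upstream sequences of a transcription factor, the klotho gene, a channel and the water channel are shown, each 5′ to 3′ on the strand of the gene, with matches to either core in capitals. For Otx2 the first of its 4 windows is given, chr14:48667645-48667894 on the minus strand. Kl is at chr5:150952357-150952606 on the plus strand, Kcnj13 at chr1:87394730-87394979 on the minus strand and Aqp1 at chr6:55336049-55336298 on the plus strand.
Otx2: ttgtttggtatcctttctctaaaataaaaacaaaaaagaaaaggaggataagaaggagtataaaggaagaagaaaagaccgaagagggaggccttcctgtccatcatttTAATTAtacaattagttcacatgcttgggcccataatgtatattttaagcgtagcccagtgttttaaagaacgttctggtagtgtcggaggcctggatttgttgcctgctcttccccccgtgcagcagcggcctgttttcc
Kl: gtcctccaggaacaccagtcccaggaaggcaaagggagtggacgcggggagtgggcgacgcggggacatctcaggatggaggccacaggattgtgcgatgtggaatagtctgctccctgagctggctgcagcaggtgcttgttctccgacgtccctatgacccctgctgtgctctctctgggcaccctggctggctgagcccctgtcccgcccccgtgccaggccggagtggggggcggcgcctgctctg
Kcnj13: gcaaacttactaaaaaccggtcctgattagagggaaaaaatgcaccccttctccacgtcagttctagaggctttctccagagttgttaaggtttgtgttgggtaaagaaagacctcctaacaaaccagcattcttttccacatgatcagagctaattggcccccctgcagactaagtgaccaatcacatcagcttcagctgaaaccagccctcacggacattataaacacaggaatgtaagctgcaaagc
Aqp1: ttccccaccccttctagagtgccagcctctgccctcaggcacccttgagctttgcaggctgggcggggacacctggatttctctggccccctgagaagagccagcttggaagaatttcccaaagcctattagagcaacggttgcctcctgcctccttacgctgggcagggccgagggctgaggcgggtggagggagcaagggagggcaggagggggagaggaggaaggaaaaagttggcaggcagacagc
Of these 4 windows only that of Otx2 holds a core, 1 TAATTA, so neither core is common to them over these 250 bases.

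How tightly each gene kept to Ttr was described by the SD over the 17 libraries of its log2 ratio to Ttr, beside the SD of its own log2 CPM. Steap1 (chr5:5736322-5749317 in GRCm38.p6), of the STEAP family of membrane proteins, had an SD of 1.30 for its level and 0.25 for its ratio. Folr1 (chr7:101858331-101870788) had 1.34 and 0.26, and 1500015O10Rik (chr1:43730602-43742564) had 1.27 and 0.28. In percent of Ttr, Steap1 lay between 0.168% and 0.265% in all 17 libraries while Ttr itself ranged over 45.5-fold. Folr1 lay between 0.435% and 0.874% of Ttr. Its group means were 0.649% ± 0.0680 (SD, n = 5) in controls, 0.667% ± 0.110 (n = 6) in epileptic sgLacZ and 0.661% ± 0.159 (n = 6) in epileptic sgKcna1, within the spread of each group. Kcne2 (0.37), Calml4 (0.40), Otx2 (0.44) and Krt8 (0.47) also had an SD of the ratio under 0.5, which makes 7 of the 34 genes. These 7 have 861 (Calml4) to 3397 (Otx2) exon bases and Ttr has 1219, so none is above 4000. These points share the libraries and the Ttr count, so they are a description.

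**Figure D3:**
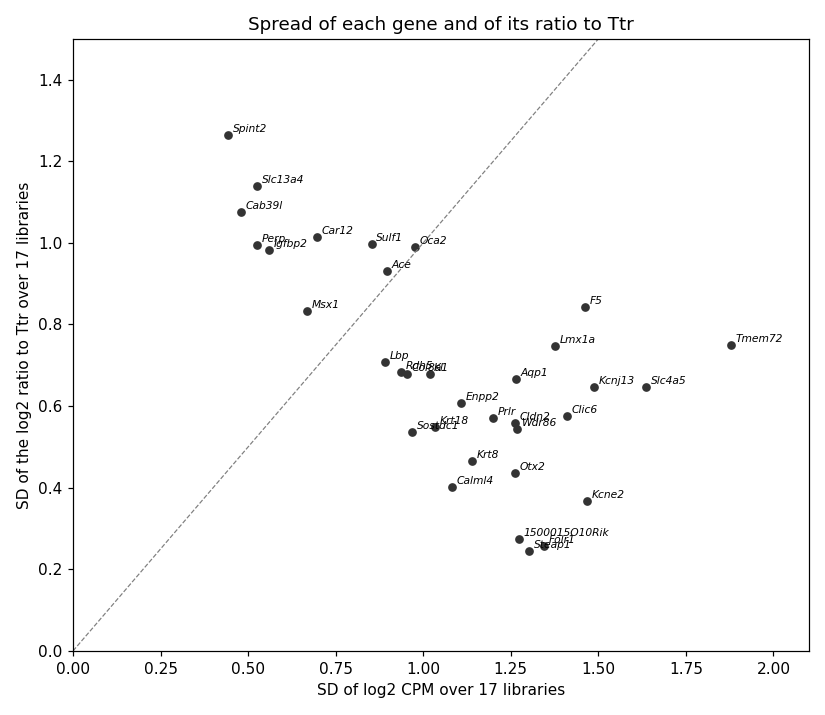
Each dot is 1 of 34 genes, with the SD of its log2 CPM over 17 libraries on the horizontal axis and the SD of its log2 ratio to Ttr on the vertical axis; the dashed line marks equal values. Steap1, Folr1 and 1500015O10Rik lie lowest, at 0.25 to 0.28, and 10 genes with Spint2 at the top lie above the line.

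For 24 of the 34 genes the ratio to Ttr varied less than the level itself. The 10 for which it did not were Spint2, Slc13a4, Cab39l, Car12, Sulf1, Perp, Oca2, Igfbp2, Ace and Msx1. The split depends on how much a gene varied, since the SD of Ttr itself was 1.44. A gene that varies far less than Ttr has a ratio that varies more than its level, even where it follows Ttr. For Spint2, Cab39l, Slc13a4, Perp, Igfbp2, Msx1 and Car12, with SDs of 0.44 to 0.70, this outcome was fixed in advance. Spint2 had an SD of 0.44 for its level and 1.26 for its ratio. In epileptic sgKcna1 replicate 2 it reached 24.6% of Ttr, against 1.40% to 2.42% in the epileptic sgLacZ libraries. Several of these 10 are known from other cells of the brain as well, such as Igfbp2 from astrocytes and meninges. How much of their RNA came from the epithelium was not tested.

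The ratio of F5 to Ttr was set beside a difference between long and short genes; F5 was chosen for this after its values were seen. F5, coagulation factor V, has a long transcript of 7430 exon bases in the older mm9 gene models. It lay between 0.129% and 0.185% of Ttr in the controls, between 0.139% and 0.945% in epileptic sgLacZ and between 0.0921% and 0.486% in epileptic sgKcna1. A difference between long and short genes was present over all genes too. The median log2 deviation of 5472 genes over 4000 bases minus that of 1171 genes under 1500 bases was 1.07 in epileptic sgLacZ replicate 4, 0.65 in replicate 7, 0.47 in replicate 9, 0.19 in replicate 6, -0.10 in replicate 8 and -0.44 in replicate 5. It was between -0.53 and -0.12 in the controls and between -0.34 and 0.15 in epileptic sgKcna1. Replicate 4 thus had both the largest difference and the highest F5 share of Ttr. In epileptic sgKcna1 the lowest F5 share lay in replicate 12, which had the lowest difference of its group. Other long members differed in this. In that library Sulf1 (4608 bases) at 0.274% and Wdr86 (4936 bases) at 0.0855% of Ttr also had the lowest share of their group. Prlr (15494 bases) was at 1.63% of Ttr there and Col8a1 (5108 bases) at 0.654%. In replicates 3, 10 and 11 Prlr lay at 0.453% to 0.795% and Col8a1 at 0.234% to 0.307%. In epileptic sgLacZ replicate 4, Prlr (1.05%), Col8a1 (0.390%), Sulf1 (1.08%) and Wdr86 (0.231%) had the highest share of their group. Steap1, at 1377 bases, was at 0.208% of Ttr in epileptic sgLacZ replicate 4 and at 0.230% in control replicate 13, the libraries at both ends of the difference. Ttr has 1219 bases, so both genes are short and their ratio cannot show a difference between long and short genes. The part of this difference in the fold changes of the genes was not tested beyond the values that follow.

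**Figure D4:**
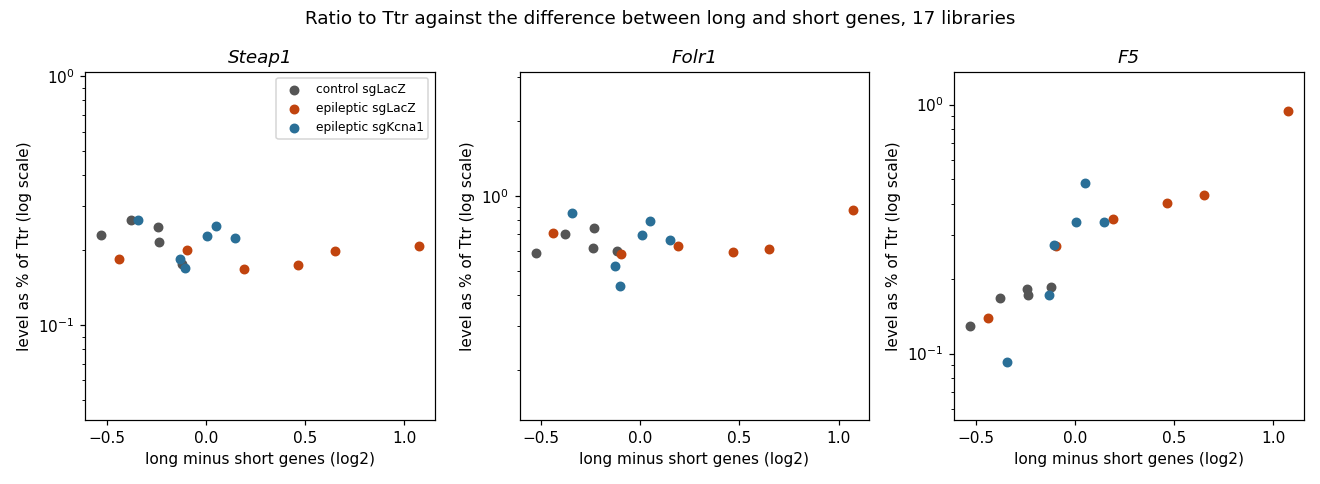
Level of Steap1, Folr1 and F5 in percent of Ttr (log axis) against the log2 difference between long and short genes over the whole library, 1 dot per library, coloured by group. F5 runs from 0.0921% to 0.945% of Ttr and is highest in the library with the largest difference (1.07), whereas Steap1, a short gene as Ttr is, stays between 0.168% and 0.265%.

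The first comparison set epileptic mice, made so by kainic acid, against sham-treated control mice, both with sgLacZ. Changes due to epilepsy and to the kainic acid treatment itself cannot be told apart in it. No choroid plexus gene passed the test in edgeR at an adjusted P under 0.05, where 11.0% of all tested genes did (1940 of 17615). The CPM ranges of both groups overlapped for all 35 genes, whereas they did not overlap for 4.39% of all genes. The fitted log2 fold change was above 0 for 32 of the 35 genes, with a median of 0.43, against 0.02 over all tested genes. The largest values were those of F5 (1.50 ± 0.63 SE, adjusted P = 0.104), Slc4a5 (1.21 ± 0.64, adjusted P = 0.185) and Clic6 (1.12 ± 0.57, adjusted P = 0.172). Spint2 (-0.26 ± 0.25), Igfbp2 (-0.03 ± 0.29) and Steap1 (-0.01 ± 0.60) had the smallest. Ttr had 0.21 ± 0.64. By role, the median was 0.92 over 9 transport genes, 0.66 over 5 receptors and enzymes, 0.43 over 3 transcription factors, 0.33 over 9 secreted products and 0.28 over 5 epithelial genes. At an unadjusted P under 0.05, 3 genes were higher (Sulf1, F5 and Ace), beside 18.8% of all genes called higher. DESeq2 called 1 member, Ace, and 20.6% of all genes, and limma voom with quality weights called 8 (Sulf1, F5, Aqp1, Slc4a5, Oca2, Car12, Ace and Clic6) and 41.4% of all genes. In the higher direction alone, DESeq2 called 11.7% and limma voom 21.4% of all genes.

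The members were also split by transcript length. The median log2 fold change was 0.21 over 13 members under 2000 bases, 0.82 over 11 between 2000 and 4000 and 0.70 over 11 above 4000. Over all genes with a mean of at least 5 CPM the medians in the same classes were -0.32, 0.02 and 0.16. The median also depended on single controls. Leaving out control replicate 13 moved the median over the 35 genes from 0.43 to 0.78, and leaving out control replicate 14 to 0.23.

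The second comparison, libraries labelled epileptic sgKcna1 against those labelled epileptic sgLacZ, addresses what the Kcna1 guide changes in epileptic mice. No choroid plexus gene passed in edgeR, and neither did any other gene (0%). The CPM ranges overlapped for all 35 genes, and were separate for 0.483% of all genes. The fitted fold change was below 0 for 34 of the 35, the exception being Spint2 at 0.06 ± 0.24, with a median of -0.91 against -0.01 over all genes. Slc4a5 (-1.49 ± 0.61 SE, adjusted P = 0.228), Lmx1a (-1.44 ± 0.62, adjusted P = 0.234) and F5 (-1.39 ± 0.59, adjusted P = 0.231) had the lowest values. After Spint2, Col8a1 (-0.32 ± 0.45) and Prlr (-0.43 ± 0.53) had the highest. Ttr had -0.75 ± 0.61. At an unadjusted P under 0.05, 15 members were lower, beside 10.5% of all genes called lower. Most members were low or high in the same libraries, so counts of members in any of the comparisons are not counts of separate observations. DESeq2 called 1 member lower, Ace, and 0.761% of all genes, and limma voom called no member and 0.0681% of all genes. Replicates 1 and 2 carried much of the value, since the median moved to -0.70 without replicate 1 and to -0.67 without replicate 2. By transcript length, the medians were -0.73, -1.08 and -0.98 for the short, middle and long members, and 0.18, -0.01 and -0.10 for all genes.

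**Figure D5:**
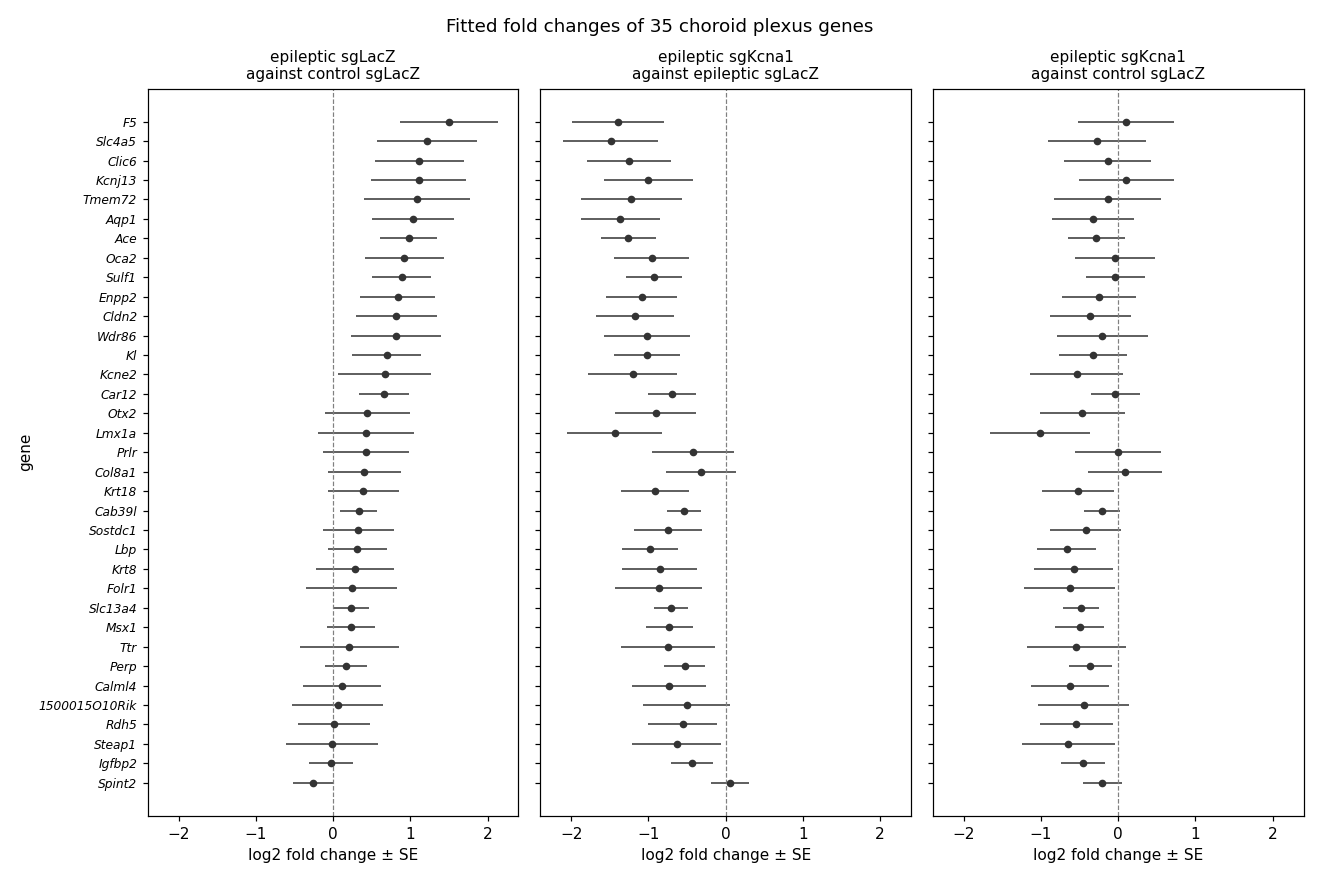
Fitted log2 fold change with its SE for each of 35 genes (rows, in the order of the first panel) in the 3 comparisons. Values lie above 0 for 32 genes in the first panel and below 0 for 34 in the second, and on both sides in the third; the first and second panels share the epileptic sgLacZ libraries.

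The third comparison set the libraries labelled epileptic sgKcna1 against the controls. No member passed in edgeR, and 0% of all genes did. The ranges overlapped for all 35 genes, and were separate for 1.14% of all genes. Fold changes were below 0 for 31 genes and above 0 for Kcnj13 (0.11 ± 0.61), F5 (0.10 ± 0.62), Col8a1 (0.09 ± 0.48) and Prlr (0.00 ± 0.56). The median was -0.36, against 0.02 over all genes. Lmx1a (-1.01 ± 0.65), Lbp (-0.67 ± 0.38), which encodes a lipopolysaccharide-binding protein, and Steap1 (-0.65 ± 0.60) had the lowest values. No member had an unadjusted P under 0.05, beside 4.29% of all genes that were higher and 2.48% that were lower at that P. DESeq2 and limma voom called no member, and 0.221% and 0.403% of all genes. Without control replicate 13 the median was 0.00. The 3 comparisons share libraries pair by pair, so their values are set side by side only.

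A second list of 24 genes of the epithelium, not among the 36, was read in the same way. In epileptic sgLacZ against control, 3 of the 24 passed in edgeR, all higher, beside the 11.0% of all genes called in either direction. These were Mfrp, a membrane frizzled-related protein (log2 fold change 3.49 ± 0.74 SE, adjusted P = 0.0320), Car14, a carbonic anhydrase (1.13 ± 0.32, adjusted P = 0.0402), and Stra6, a receptor for retinol-binding protein (0.90 ± 0.25, adjusted P = 0.0391). Mfrp had 0.375 to 2.16 CPM in controls, and 28.1 CPM in epileptic sgLacZ replicate 4, 9.80 to 12.2 in replicates 6, 7, 8 and 9 and 1.20 in replicate 5. The calls held in 15 (Mfrp), 14 (Stra6) and 12 (Car14) of 24 alternative fits. Their log2 fold changes ran from 2.02 to 3.92 (Mfrp), 0.476 to 1.03 (Stra6) and 0.0566 to 1.24 (Car14) over all fits. Within epileptic sgLacZ, all of them were highest in replicate 4 and lowest in replicate 5. Stra6 had 18.6 and 7.83 CPM there, and Car14 16.7 and 7.52. These libraries were also the ends of that group in the difference between long and short genes (1.07 and -0.44). The part of that difference in the calls was not tested. The counts of both strands added to 2.73 times the unstranded count of Car14 and 1.08 times that of Mfrp, so both overlap other genes. The median log2 fold change over the 24 was 0.44 in this comparison, -0.71 in epileptic sgKcna1 against epileptic sgLacZ and -0.16 in epileptic sgKcna1 against control, and none passed in the last 2. Slc16a8, a lactate transporter, kept closest to Ttr among them, with an SD of 0.44 for the ratio, whereas Slc22a8, which is also found in brain vessels, had 1.63. For 9 of the 24 the ratio to Ttr varied less than the level, and for 15 it varied more, among them Htr2c (1.32 against 0.44), Trpm3 (1.10 against 0.48) and Slc12a2 (1.12 against 0.37). These named genes varied so much less than Ttr (SD 1.44) that their outcome was fixed in advance. It does not show whether they followed Ttr.

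Summed markers of neighbouring tissues varied less between libraries than Ttr, but a sum over several genes and a single gene are unlike measures. Summed in the same way, the 24 other genes of the epithelium had 443.2 to 735.2 CPM in controls. They had 532.6 to 936.0 in epileptic sgLacZ and 341.7 to 636.3 in epileptic sgKcna1. Summed over 9 genes, ependyma, the ciliated lining of the ventricles, had 81.0 to 119.8 CPM in controls, 72.4 to 106.3 in epileptic sgLacZ and 35.4 to 91.9 in epileptic sgKcna1, where replicate 1 was lowest. The 11 markers of meninges and fibroblasts had 113.6 to 275.3, 163.2 to 235.5 and 71.4 to 262.5 CPM in the same order, and 9 endothelial markers had 277.8 to 337.2, 239.1 to 353.2 and 262.1 to 351.9. Oligodendrocyte markers (6 genes) had 6371 to 9080, 5122 to 7204 and 2735 to 9552 CPM, lowest in epileptic sgKcna1 replicate 1, and 8 markers of thalamus and habenula had 96.7 to 174.9, 97.9 to 298.9 and 79.4 to 224.5. Astrocyte markers (5 genes) had 1724 to 2115, 2107 to 2991 and 2096 to 2545, and 3 blood genes 153.7 to 308.8, 48.6 to 185.8 and 89.3 to 343.6. Ependyma and oligodendrocytes thus reached their lowest sums in epileptic sgKcna1 replicate 1 and thalamus and habenula in replicate 2, both low in choroid plexus genes. The other lists of neighbouring tissues were lowest elsewhere. These were meninges and fibroblasts in epileptic sgKcna1 replicate 3, endothelium in epileptic sgLacZ replicate 9, blood in epileptic sgLacZ replicate 4 and astrocytes in control replicate 13. Control replicate 14, also low in choroid plexus genes, had 86.9 CPM for ependyma, 7718 for oligodendrocytes and 130.1 for thalamus and habenula. The part of these tissues in the values of the choroid plexus genes was not tested.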

How the data were processed

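Polyadenylated RNA from 17 hippocampal samples in 3 groups was sequenced, and groups were taken from the labels. The authors aligned reads to mm10 with STAR 2.7 and deposited raw counts per gene, not normalized, for both strands and for each strand. The unstranded counts were used, since the strands held nearly equal reads (ratio 0.994 to 0.998). The annotation release is not given in the sources used here. The 4 summary lines of each list stayed out of library sizes. Reads ambiguous between overlapping genes and reads mapping to several places are not counted, and intervals and floors cover counting error only. Libraries of 1 group differed beyond sampling noise in all 40 pairs (chi-square over degrees of freedom 8.67 to 220).

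The choroid plexus genes, the other marker lists and the rule for genes named with full values were chosen with earlier results of these data known. Named were 18 members fixed by role and the 3 highest and 3 lowest fold changes per comparison; Mfrp, Car14, Stra6, Slc16a8, Slc22a8, Htr2c, Trpm3 and Slc12a2 were singled out after their values were seen. Tests were run with edgeR 4.0.16 in R 4.3.3 (filterByExpr, TMM, two-sided quasi-likelihood F test, all 3 groups in 1 fit, Benjamini-Hochberg over 17615 genes, threshold 0.05), which was tested on simulated data. DESeq2 1.42.0, the tool of the study, and limma 3.58.1 were alternatives, with other size factors, no filter, summed strands, covariates and each library left out. Log2 CPM used a prior count of 2. The levels of Igf2 and the marker sums are scaled by reads in genes only. Coordinates and promoters are from RefSeq for GRCm38.p6, and exon lengths from mm9 gene models. Dnah12, Hbb-bs and Hbb-bt were not matched by symbol.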

Additional observations from a re-analysis of the deposited data

Results flagged for a closer look

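Of 108 sets of values (36 genes in 3 groups), 7 held a library set far apart from the rest of its group by Dixon's test, where chance gives about 1 in 20. In control replicate 13, Oca2 had 4.00 CPM where the next control had 0.962, Perp had 21.8 against 10.9 and Spint2 had 216 against 118.5. In epileptic sgLacZ replicate 8, Sostdc1 had 58.2 CPM against 36.6 and Steap1 had 22.4 against 13.0. In epileptic sgLacZ replicate 5, Oca2 was low at 0.992 CPM, with the next library at 2.92. Igf2 had 5.40 CPM in epileptic sgLacZ replicate 4 against 1.29 in the next. The cause was not tested.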

How the results depend on the processing

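In edgeR with the settings of the text, no choroid plexus gene was called in any of the 3 comparisons. In epileptic sgLacZ against control, 1 gene was called higher without the filter on low counts (Igf2, beside 3.25% of all genes called higher), 1 with DESeq2 (Ace, beside 11.7%) and 8 with limma voom with quality weights (beside 21.4%). In epileptic sgKcna1 against epileptic sgLacZ, 1 was called lower with DESeq2 (Ace, beside 0.414% of all genes called lower). With 1 library left out, the count ranged from 0 to 2 in either of these comparisons, with 2 called only without epileptic sgLacZ replicate 5 (F5 and Ace higher, beside 16.0% of all genes, and Slc13a4 and Ace lower, beside 4.25%), and was 0 in epileptic sgKcna1 against control. The cause was not tested. The median log2 fold change over the genes ranged with 1 library left out from 0.23 to 0.78, from -1.13 to -0.67 and from -0.60 to 0.00 in the 3 comparisons in the order of the text. With the percent of unmapped reads as a covariate the medians were 0.63, -1.08 and -0.36, with limma voom 0.75, -1.27 and -0.44, and with the difference between long and short genes as a covariate, an alternative chosen after seeing the data, 0.67, -0.97 and -0.31. Of 434 single-gene values under settings that keep all libraries, 1 moved by more than the spread between replicates, and none of 1054 with 1 library left out. No paired analysis was possible because the groups share no replicate numbers. Depth limits Igf2, Lmx1a, Kcnj13 and Tmem72, which had 3 reads or fewer in a library.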
